A study of Mus musculus with 12 samples.

Results

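The FoxO transcription factors Foxo1, Foxo3 and Foxo4, the ubiquitin ligase genes Fbxo32, Trim63, Fbxo30 and Fbxo40, and Klhl31, a Kelch protein of muscle, were followed in differentiating C2C12 cells. They are 8 of the 46983 genes of the deposited table and were taken by symbol, with earlier results of these data known. C2C12 is a mouse myoblast line that fuses into myotubes in culture. The wild-type cells, called WT, belong to the control group named after the PiggyBac vector PB-IP, and the PPARγ/+ cells carried that vector with the PPARγ coding sequence and were selected with puromycin. RNA was sequenced on 0d and after 5 days of differentiation (5d), which gave the groups WT_0d, WT_5d, PPARγ/+_0d and PPARγ/+_5d with 3 libraries each. The series' design text calls the PPARγ cells inducible and the controls uninduced, whereas the labels call the controls wild type, and the promoter of the construct and the number of clones are not given in the sources used here.

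FoxO factors are forkhead activators that insulin signaling holds in the cytoplasm through phosphorylation by Akt. In muscle they are known for activating the genes of ubiquitin ligases that mark proteins for the proteasome during atrophy. Fbxo32 (atrogin-1) and Fbxo30 (MUSA1) are F-box subunits of SCF ligases, Trim63 (MuRF1) is a RING ligase of the sarcomere, Fbxo40 is a muscle F-box protein known to target Irs1, and Klhl31 belongs to the Kelch family, whose members often serve as adaptors of cullin ligases. PPARγ is the nuclear receptor of adipocyte differentiation.

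The labels were checked with Pparg itself. Its FPKM (fragments scaled by exon length and sequencing depth) was 7.56, 5.10 and 6.92 in WT_0d and 3.12, 3.53 and 4.59 in WT_5d, against 44.4, 28.0 and 46.4 in PPARγ/+_0d and 40.1, 44.1 and 92.7 in PPARγ/+_5d. All 6 PPARγ/+ libraries lay above all 6 WT libraries (limma adjusted p = 0.00148 on 0d and 1.73e-04 on 5d). The summed FPKM of 10 myotube markers rose from 33.5, 174 and 23.3 to 7509, 5547 and 1579 in WT cells, and from 21.0, 33.5 and 45.6 to 1566, 1768 and 1887 in PPARγ/+ cells, with all 10 markers called in each. WT_5d replicate 3 thus stood apart from the other WT_5d libraries and lay beside the PPARγ/+ ones, and results that rest on it are given with and without it. The summed FPKM of 7 myoblast markers was 215, 291 and 169 in WT_0d and 81.1, 82.1 and 109 in PPARγ/+_0d, without overlap. On 5d it was 736, 661 and 252 in WT cells and 318, 344 and 355 in PPARγ/+ cells. Between the cell types on 0d, 6 of the 7 were lower in PPARγ/+ cells and 1 was higher. Cdh15 and Myf5 were called as lower there (limma adjusted p = 0.00877 and 0.00165), where 1.96% of all genes tested were called. The sum of 7 genes of dividing cells was 200 to 302 FPKM on 0d and 24.3 to 34.6 on 5d. The sum of 8 adipocyte markers was at most 2.26 FPKM in WT cells, 3.10 to 5.75 in PPARγ/+_0d and 18.7 to 76.9 in PPARγ/+_5d, where Lep was at 0. Endothelial markers summed to at most 0.233 FPKM in any library, macrophage markers to 2.07 to 5.13, osteoblast markers to 5.22 to 8.73 and keratinocyte markers to 9.49 to 38.0. In each group 1 of 4 macrophage markers, 1 of 5 osteoblast markers and 2 or 3 of 4 keratinocyte markers reached 1 FPKM. Since these are bulk libraries, fewer cells of a type and less RNA per cell cannot be told apart.

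Genes were compared with limma on log2(FPKM + 0.1), and all fold changes are on that scale. Between the days of a cell type a call needed a 2-fold change and an unadjusted p-value no larger than 0.05, the thresholds of the study. Between the cell types on 1 day the limit of 0.05 applied to the adjusted p-value, again with a 2-fold change. The interaction of cell type and day subtracts the WT change from the PPARγ/+ change and was called by its adjusted p-value alone, at the same limit. Trim63, Fbxo40 and Klhl31 were called as higher on 5d in both cell types, so 3 of the 8 members, against 8.94% of all 18023 genes tested in WT cells and 9.11% in PPARγ/+ cells. No member was called as lower, against 7.53% and 6.06% of all genes. Fbxo40 reached the filter of 0.1 FPKM in none of the 0d libraries and Klhl31 in 1, so both entered the test through their 5d libraries, and these counts only describe the members. Foxo4 had the highest FPKM of the 8 in each of the 12 libraries.

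**Figure D1:**
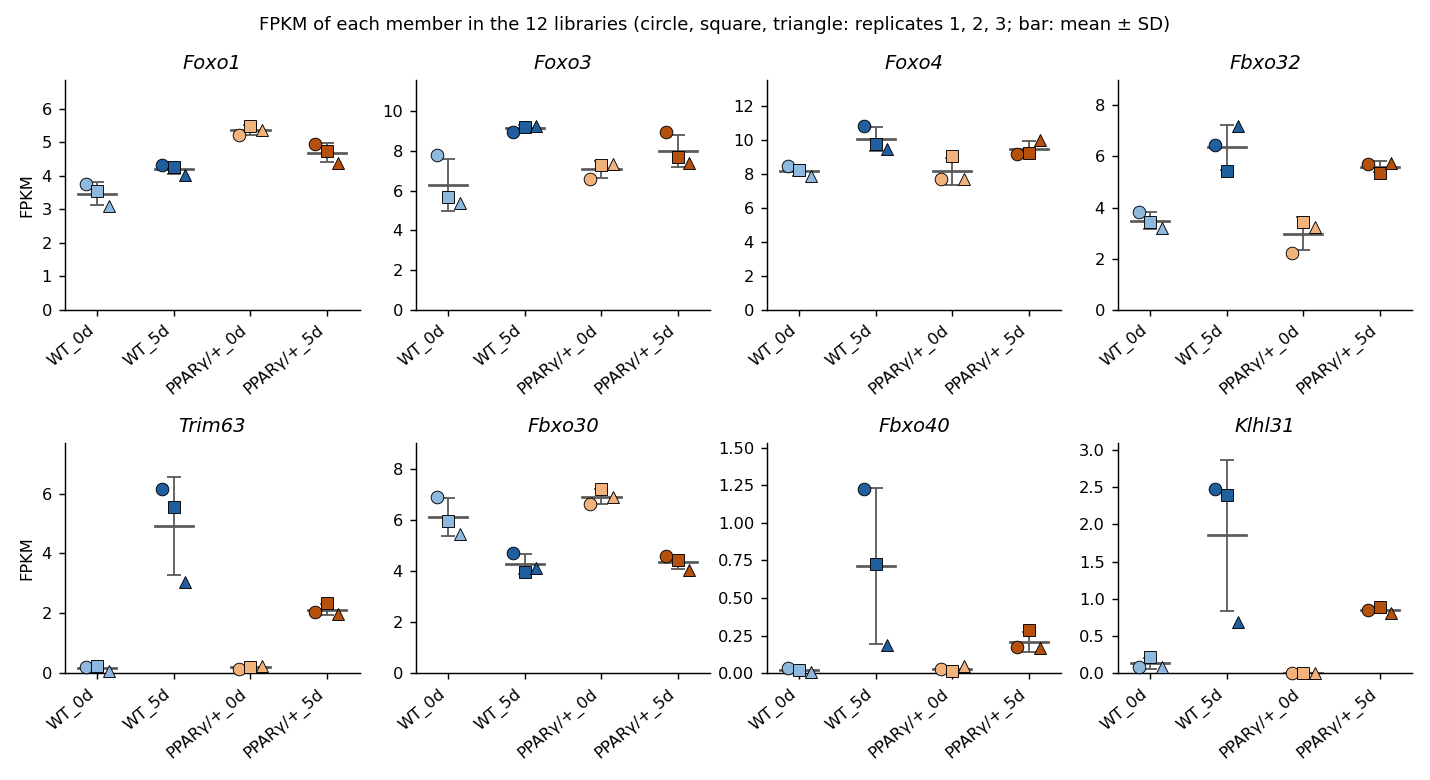
FPKM (y axis, linear, from 0) of each of the 8 genes in the 12 libraries, by group (x axis), with circles, squares and triangles for replicates 1, 2 and 3 and bars for the mean ± SD. Trim63, Fbxo40 and Klhl31 went from near 0 to higher values on 5d, with WT_5d replicate 3 lowest of its group in all 3, while the FoxO factors stayed between 3.09 and 10.8 FPKM.

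Among the FoxO factors, Foxo4 and Foxo3 were higher on 5d than on 0d in both cell types without reaching 2-fold, and Foxo1 moved in opposite directions. Foxo1, the factor best known for insulin-regulated gluconeogenesis (ENSMUSG00000044167, chromosome 3 of GRCm38, 52268336 to 52353221, plus strand), had 3.76, 3.54 and 3.09 FPKM in WT_0d and 4.32, 4.25 and 4.03 in WT_5d. In PPARγ/+_0d it had 5.20, 5.49 and 5.37 FPKM and in PPARγ/+_5d 4.94, 4.72 and 4.38. So the 5d libraries lay above the 0d libraries in WT cells and below them in PPARγ/+ cells, with no overlap in either. The log2 change was 0.28 (standard error 0.11, limma adjusted p = 0.0992) in WT cells and −0.19 (standard error 0.07, limma adjusted p = 0.0716) in PPARγ/+ cells. Their difference, the interaction, was −0.47 (standard error 0.13) with an adjusted p of 0.147 and an unadjusted p of 0.00361 in limma, so it was not called. After median-ratio scaling of the libraries the change in PPARγ/+ cells was −0.06 (limma adjusted p = 0.49) and that in WT cells 0.40 (limma adjusted p = 0.0342). On 0d all PPARγ/+ libraries were above all WT libraries, 1.54-fold by the fit (log2 0.62, standard error 0.09, limma adjusted p = 0.00414), which is under 2-fold and so not a call. On 5d the groups again did not overlap, but the difference was 0.15 (adjusted p = 0.459). Foxo1 made up 17.7% to 20.3% of the summed FPKM of the 3 factors in the WT libraries, 25.1% to 26.7% in PPARγ/+_0d and 20.1% to 21.9% in PPARγ/+_5d. Foxo1 shares 674 bp of exon with Gm20402 on the opposite strand, which is listed at 0 FPKM in all 12 libraries.

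Foxo3, a factor known for driving both atrophy ligases and autophagy genes in muscle (ENSMUSG00000048756, chromosome 10, 42181841 to 42276755, minus strand), had 7.79, 5.69 and 5.37 FPKM in WT_0d and 8.98, 9.21 and 9.27 in WT_5d. The WT libraries of both days did not overlap, and the log2 change was 0.55 (standard error 0.15, limma adjusted p = 0.0278), short of 2-fold. In PPARγ/+ cells Foxo3 had 6.58, 7.32 and 7.32 FPKM on 0d and 8.93, 7.68 and 7.39 on 5d, a log2 change of 0.17 (standard error 0.09, adjusted p = 0.165). These libraries did not overlap either, but the gap between the highest 0d and the lowest 5d library was small beside the range of the 5d libraries. The interaction was −0.38 (95% interval −0.78 to 0.01, adjusted p = 0.434).

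Foxo4, the X-linked member of the family (ENSMUSG00000042903, chromosome X, 101254528 to 101260873, plus strand), had 8.48, 8.19 and 7.86 FPKM in WT_0d and 10.8, 9.75 and 9.47 in WT_5d. In PPARγ/+ cells it had 7.68, 9.06 and 7.70 FPKM on 0d and 9.16, 9.19 and 9.98 on 5d. The log2 changes were 0.29 (standard error 0.08, limma adjusted p = 0.0374) in WT cells and 0.21 (standard error 0.08, limma adjusted p = 0.0764) in PPARγ/+ cells, with no overlap of the days in either. The cell types overlapped on both days, and the interaction was −0.07 (95% interval −0.34 to 0.19). Per length, Foxo4 lay above Foxo3 without overlap in each of the 4 groups. Foxo3 and Fbxo30 overlapped on 0d in both cell types. Foxo1 and Fbxo32 overlapped in WT_0d, while Foxo1 was the higher in all PPARγ/+_0d libraries.

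Foxo6, the fourth FoxO gene and not among the 8, is known mainly from brain. It had 1.62, 2.0 and 1.73 FPKM in WT_0d and 7.22, 7.17 and 2.65 in WT_5d, and 0.846, 0.601 and 0.490 in PPARγ/+_0d and 2.40, 2.31 and 2.22 in PPARγ/+_5d. It was called as higher on 5d in WT cells (log2 change 1.49, standard error 0.39, limma adjusted p = 0.026) and in PPARγ/+ cells (1.72, standard error 0.19, adjusted p = 5.1e-04). On 0d Foxo6 was called as lower in PPARγ/+ than in WT cells (log2 −1.36, standard error 0.32, limma adjusted p = 0.0349), though not with 1 added to the FPKM (−0.76, adjusted p = 0.111). The interaction of Foxo6 was 0.23, and −0.24 without WT_5d replicate 3.

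The promoters of Trim63, Fbxo40 and Klhl31 are shown because these 3 genes were called together in both cell types. The RefSeq table of GRCm38.p6 held a promoter for 6 of the 8 members, 7 windows in all, and none was matched for Fbxo32 and Foxo4. Each window runs from 250 bases before to 50 bases after the transcription start, 5′ to 3′ on the strand of the gene. Capitals mark the E-box CANNTG bound by myogenic factors such as Myog, the FoxO core TGTTTAC and the MEF2 consensus, each searched on both strands, and no marked match overlaps another. Trim63 is at chr4:134314870-134315169 (plus strand), the upstream of the 2 Fbxo40 starts at chr16:36990418-36990717 (minus strand) and Klhl31 at chr9:77636482-77636781 (plus strand).
Trim63: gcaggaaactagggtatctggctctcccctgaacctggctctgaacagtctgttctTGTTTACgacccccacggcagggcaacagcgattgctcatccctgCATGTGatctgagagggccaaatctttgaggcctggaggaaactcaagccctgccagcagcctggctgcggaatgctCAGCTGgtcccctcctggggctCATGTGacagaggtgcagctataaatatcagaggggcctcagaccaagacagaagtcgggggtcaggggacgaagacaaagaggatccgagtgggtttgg
Fbxo40: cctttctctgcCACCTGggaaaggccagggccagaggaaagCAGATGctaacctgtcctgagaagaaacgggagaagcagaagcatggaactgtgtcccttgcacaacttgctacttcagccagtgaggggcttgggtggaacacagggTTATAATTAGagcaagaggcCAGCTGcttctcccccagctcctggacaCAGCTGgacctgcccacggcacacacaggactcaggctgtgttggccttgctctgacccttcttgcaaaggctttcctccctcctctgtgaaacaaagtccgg
Klhl31: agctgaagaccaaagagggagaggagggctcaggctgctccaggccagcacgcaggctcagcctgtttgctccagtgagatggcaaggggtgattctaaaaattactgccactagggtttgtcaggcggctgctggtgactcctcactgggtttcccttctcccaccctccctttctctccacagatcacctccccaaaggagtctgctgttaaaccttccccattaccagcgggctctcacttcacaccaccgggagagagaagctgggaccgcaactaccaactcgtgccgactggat
The Trim63 window holds 3 E-boxes, which begin 149, 72 and 50 bases before the start, and 1 FoxO core at 194 bases before it. The Fbxo40 window holds 4 E-boxes and 1 MEF2 match, the window of the other Fbxo40 start holds 2 E-boxes, and that of Klhl31 holds none of the 3 motifs. Of the other members, Foxo1 has 1 E-box and Foxo3 and Fbxo30 no match. The Klhl31 window begins at 77636482 and the gene is annotated from 77636500, so most of this window lies inside the gene. For Fbxo30 the window begins at 11281337, inside the gene annotated from 11281330. Sequence before these annotated gene starts was thus hardly searched. An E-box occurs in 72.3% of all 32851 promoter windows of the table, the FoxO core in 3.65% and the MEF2 consensus in 1.86%. These matches are letters in a window and were not tested as binding sites.

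Trim63, whose protein is known to ubiquitinate myosin and other thick-filament proteins (ENSMUSG00000028834, chromosome 4, 134315120 to 134329629, plus strand), had the largest change of the 8 in WT cells. Its FPKM was 0.200, 0.251 and 0.0608 in WT_0d and 6.15, 5.56 and 3.06 in WT_5d, from 4 to 18 fragments per library to between 198 and 445. In PPARγ/+ cells it was 0.130, 0.216 and 0.242 FPKM on 0d and 2.04, 2.34 and 1.99 on 5d, from 9 to 16 fragments to between 105 and 143. Every 5d library was above every 0d library in both cell types, and on 5d every WT library was above every PPARγ/+ library. Trim63 rose 18.8-fold in WT cells (log2 4.23, standard error 0.39, limma adjusted p = 6.78e-04) and 7.60-fold in PPARγ/+ cells (log2 2.93, standard error 0.20, limma adjusted p = 8.31e-05). With few fragments on 0d these sizes depend on the value added, from 2.30 with 1 added to 4.91 with 0.01 added on the log2 scale in WT cells and from 1.38 to 3.41 in PPARγ/+ cells, all of them called. On 0d the cell types overlapped, with a log2 difference of 0.18 (95% interval −0.53 to 0.89).

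Fbxo40 was low throughout (ENSMUSG00000047746, chromosome 16, 36963460 to 36990467, minus strand). It had 0.0374, 0.0216 and 0.00783 FPKM in WT_0d, which is 4, 3 and 1 fragments, and 1.22, 0.723 and 0.191 in WT_5d, which is 172, 77 and 24. In PPARγ/+_0d it had 0.0297, 0.0139 and 0.0498 FPKM (4, 2 and 6 fragments) and in PPARγ/+_5d 0.175, 0.287 and 0.166 (20, 34 and 17 fragments). The 5d libraries lay above the 0d libraries in both cell types. Fbxo40 rose by 2.49 on the log2 scale in WT cells (standard error 0.55, limma adjusted p = 0.0144) and by 1.22 in PPARγ/+ cells (standard error 0.25, limma adjusted p = 0.0073). These sizes depend on the 0.1 added to each value, and with 1 added the changes were 0.70 and 0.23, neither past 2-fold. Since Fbxo40 entered the test through its 5d libraries alone, its p-values between the days only describe it.

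Klhl31 (ENSMUSG00000044938, chromosome 9, 77636500 to 77660127, plus strand), a gene of the heart and skeletal muscle, had 0.0873, 0.220 and 0.0865 FPKM in WT_0d and 2.47, 2.39 and 0.683 in WT_5d. It rose by 2.94 on the log2 scale in WT cells (standard error 0.52, limma adjusted p = 0.00638). In each of the 3 PPARγ/+_0d libraries Klhl31 had 1 fragment, against 11, 36 and 13 in WT_0d. In PPARγ/+_5d it had 115, 124 and 98 fragments, or 0.854, 0.888 and 0.812 FPKM. Summed over the group and scaled for depth, the 5d libraries were 133.6-fold above the 0d libraries of PPARγ/+ cells, with an exact 95% interval of 45.3 to 650.9 that covers counting error only, and Klhl31 was called there (limma adjusted p = 4.63e-05). With 1 added to the FPKM that log2 change was 0.88 and not past 2-fold. Only 1 of the 0d libraries reached the filter of 0.1 FPKM for Klhl31, so its p-values between the days only describe it. On 0d the fragments were 21.3-fold lower in PPARγ/+ than in WT cells (exact 95% interval 6.96 to 106.4, counting error only) with no overlap of the libraries. In limma this was a log2 difference of −1.07 (standard error 0.40, adjusted p = 0.154), not a call. It was called without WT_5d replicate 3, which left the difference at −1.07 (adjusted p = 0.0158), and with 0.01 added it was −2.98 (adjusted p = 0.0083). WT_0d replicate 2, which had the most Klhl31 of its group, also had the most myotube marker RNA (174 FPKM against 33.5 and 23.3). Without it the difference was −0.81 (limma adjusted p = 0.388), and the other WT_0d libraries still had 11 and 13 fragments against 1.

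Fbxo32, the best known atrophy ligase (ENSMUSG00000022358, chromosome 15, 58175879 to 58214932, minus strand), had 3.84, 3.44 and 3.21 FPKM in WT_0d and 6.44, 5.42 and 7.20 in WT_5d. In PPARγ/+ cells it had 2.24, 3.45 and 3.25 FPKM on 0d and 5.69, 5.36 and 5.75 on 5d. The days did not overlap in either cell type, whereas the cell types overlapped on both days. The changes were 1.79-fold in WT cells (log2 0.84, standard error 0.14, limma adjusted p = 0.00464) and 1.88-fold in PPARγ/+ cells (log2 0.91, standard error 0.16, limma adjusted p = 0.00376), both short of 2-fold and so not called. In PPARγ/+ cells the change passed 2-fold after median-ratio scaling (log2 1.04) and without PPARγ/+_0d replicate 2 (1.03). The interaction was 0.07 (95% interval −0.41 to 0.56). WT_5d replicate 3 had the highest Fbxo32 and the lowest Trim63, Fbxo40 and Klhl31 of its group. Fbxo32 shares 186 bp of exon with Gm15943 on the opposite strand, which was at most 0.0243 FPKM.

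Fbxo30 (ENSMUSG00000047648, chromosome 10, 11281330 to 11298052, plus strand) was the 1 ligase gene that was lower on 5d. It had 6.93, 5.97 and 5.48 FPKM in WT_0d and 4.73, 3.98 and 4.12 in WT_5d, and 6.65, 7.22 and 6.91 in PPARγ/+_0d and 4.58, 4.43 and 4.05 in PPARγ/+_5d. Both days were apart in both cell types. The values were 1.42-fold lower in WT cells (log2 −0.51, standard error 0.12, limma adjusted p = 0.0212) and 1.58-fold lower in PPARγ/+ cells (log2 −0.66, standard error 0.08, limma adjusted p = 5.84e-04), neither of them 2-fold. The median log2 change of all genes tested was −0.08 and −0.10 in the same comparisons. The interaction was −0.15 (95% interval −0.47 to 0.17).

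**Figure D2:**
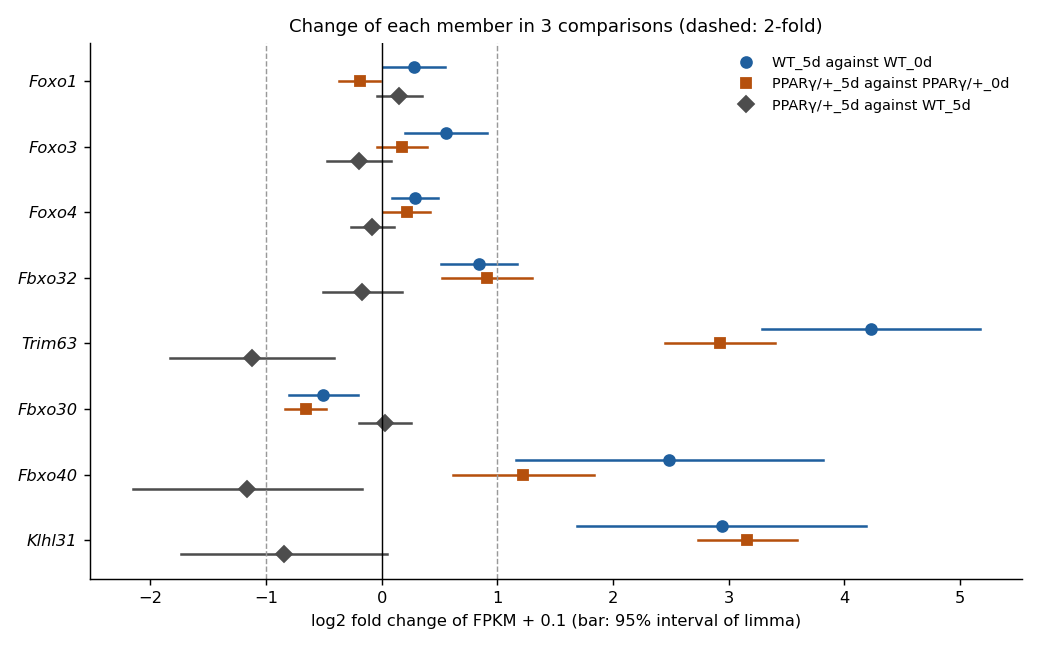
Log2 fold change of FPKM + 0.1 (x axis) for each of the 8 genes (y axis), from 0d to 5d in WT cells (circles) and PPARγ/+ cells (squares) and between PPARγ/+ and WT cells on 5d (diamonds), with the 95% interval of limma. Trim63 lies at 4.23, 2.93 and −1.12, Fbxo32 stays under the dashed 2-fold line, and Fbxo30 lies left of 0 in the day comparison of both cell types.

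Whether PPARγ overexpression altered the members was tested on each day and by the interaction. No member was called in limma on 0d, on 5d or in the interaction, where 1.96%, 1.1% and 0.76% of all genes were. With an unadjusted p-value up to 0.05, 2 members passed in each of the 3 tests, Foxo1 and Klhl31 on 0d, Trim63 and Fbxo40 on 5d, and Foxo1 and Trim63 in the interaction, where 21.3%, 15.3% and 12% of all genes tested did. On 5d Trim63 was 2.17-fold lower in PPARγ/+ cells (log2 −1.12, standard error 0.32, adjusted p = 0.122), with no overlap of the libraries. Fbxo40 was 2.24-fold lower (log2 −1.16, standard error 0.45, adjusted p = 0.251) and Klhl31 1.80-fold lower (log2 −0.85, standard error 0.40, adjusted p = 0.352). Both overlapped between the cell types, through WT_5d replicate 3. The limma interactions were −1.30 (adjusted p = 0.269) for Trim63, −1.26 (adjusted p = 0.476) for Fbxo40 and 0.22 (adjusted p = 0.915) for Klhl31. The PPARγ/+_0d group of Klhl31 is at the floor of 3 fragments, so that the size depends on the value added. Over the alternatives the interaction of Klhl31 lay between −0.38 and 2.08.

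Without WT_5d replicate 3 all 3 genes were called as lower in PPARγ/+_5d. This library was the lowest of its group in all 3, so leaving it out must raise their WT_5d means, and these calls are no separate support. The log2 differences were then −1.42 for Trim63 (limma adjusted p = 0.0161), −1.78 for Fbxo40 (adjusted p = 0.00486) and −1.41 for Klhl31 (adjusted p = 0.00694). Genes called in that comparison went from 199 to 796 of the 18023 tested. In 19 of the 22 alternatives no member was called on 5d. Fbxo40 was also called in the interaction (−1.88, adjusted p = 0.0367). In WT cells the changes from 0d to 5d without this library were 4.53 for Trim63, 3.10 for Fbxo40 and 3.50 for Klhl31. The myotube markers moved with these genes. The 2 WT_5d libraries with high marker sums, 7509 and 5547 FPKM, had the highest Trim63, Fbxo40 and Klhl31 of all 12, and WT_5d replicate 3, at 1579 FPKM, had levels of Fbxo40 and Klhl31 near those of the PPARγ/+_5d libraries, at 1566 to 1887.

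Divided by the marker sum and given per 1000 FPKM of markers, Trim63 was 0.819, 1.0 and 1.94 FPKM in the WT_5d libraries and 1.30, 1.32 and 1.05 in the PPARγ/+_5d libraries, so that the groups overlapped. Fbxo40 was 0.121 to 0.163 in WT_5d and 0.0879 to 0.162 in PPARγ/+_5d. Klhl31 was 0.329 to 0.432 and 0.430 to 0.545, with the PPARγ/+ values at the upper end. On 0d the same ratio of Klhl31 was 2.60, 1.26 and 3.71 in the WT libraries and 0.301, 0.176 and 0.155 in the PPARγ/+ libraries, without overlap and in the other direction, while that of Trim63 was 5.95, 1.44 and 2.61 against 6.19, 6.45 and 5.30. Among the 5d libraries Fbxo32 did not follow the markers, with a ratio of 0.857, 0.977 and 4.56 in WT_5d and 3.03 to 3.63 in PPARγ/+_5d. From 0d to 5d both Fbxo32 and the markers rose in each cell type. The part of the markers in the differences between the cell types was not tested.

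**Figure D3:**
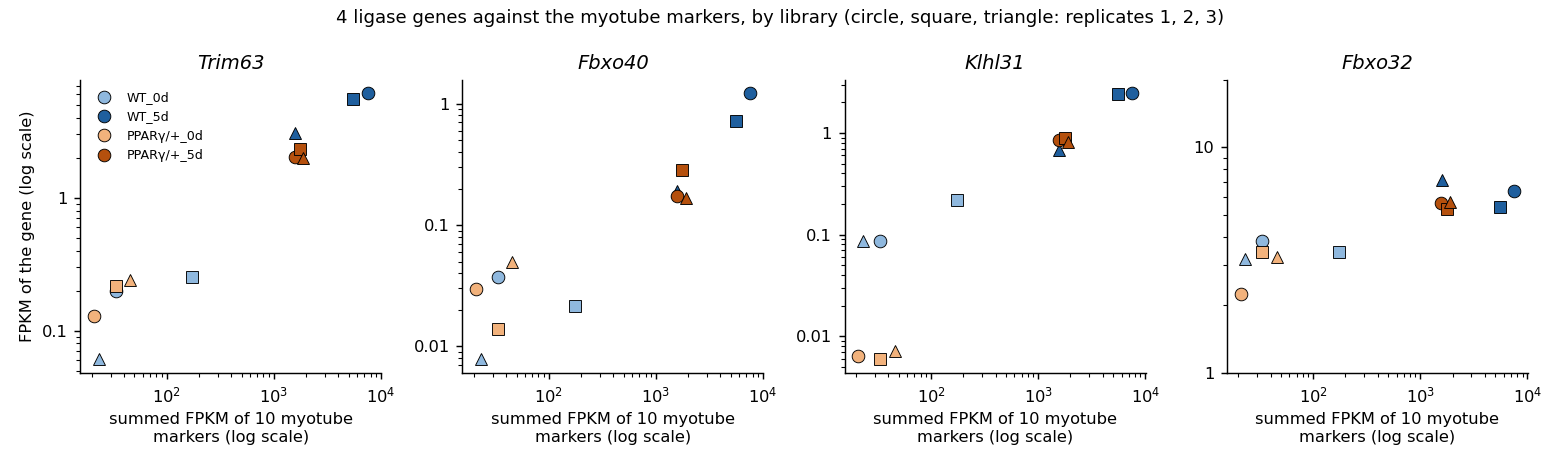
FPKM of Trim63, Fbxo40, Klhl31 and Fbxo32 (y axes, log scale) against the summed FPKM of 10 myotube markers (x axes, log scale), 1 point per library, with circles, squares and triangles for replicates 1, 2 and 3. WT_5d replicate 3 (1579 FPKM of markers) lies with the PPARγ/+_5d libraries for Fbxo40 and Klhl31 and above them for Trim63 and Fbxo32.

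For each member called between the days, the genes with the nearest profile were found by the root mean square difference of the centred log2(FPKM + 0.1) over the 12 libraries, among 11675 genes with a mean of at least 1 FPKM. Nearest to Trim63 were Pygm, the muscle glycogen phosphorylase (difference 0.29), and Olfr805, annotated as an olfactory receptor (0.36). Nearest to Fbxo40 were Myl6b, a myosin light chain (0.24), and Sh3bgr (0.26), and nearest to Klhl31 were Actn3, the actinin of fast fibers (0.24), and Tgm2, a transglutaminase (0.29). Between the members themselves the closest called pair was Trim63 and Klhl31, at 0.60, and Trim63 and Fbxo30 were the farthest apart, at 2.14.

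The wider pathway was read from 9 lists of 206 genes that are no members, of which 205 were tested. In WT cells 27 were called as higher on 5d and 5 as lower, 13.2% and 2.44% against 8.94% and 7.53% of all genes. In PPARγ/+ cells 25 were higher and 7 lower, 12.2% and 3.41% against 9.11% and 6.06%. Upstream of FoxO, in the insulin, PI3K and Akt arm, 1 of 24 genes was called in each cell type. It was Pik3r1, the regulatory subunit of PI3K, which rose from a mean of 9.18 to 21.3 FPKM in WT cells (log2 1.14, adjusted p = 0.016) and from 12.5 to 25.8 in PPARγ/+ cells (1.05, adjusted p = 8.86e-04). Without WT_5d replicate 3 Pik3r1 was not called in WT cells, and 1 other gene of the list was called as lower. The median of the list was −0.20 and −0.16.

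Of 24 modifiers and partners of FoxO, 2 rose and 2 fell in WT cells, and 1 rose and 2 fell in PPARγ/+ cells. In WT cells 8.94% of all genes tested were called as higher and 7.53% as lower, and in PPARγ/+ cells 9.11% and 6.06%. The counts of this list thus only describe it. Skp2, an F-box protein of the cell cycle known to target FoxO1, fell by 1.60 and 1.12 on the log2 scale, and Ywhah, a 14-3-3 protein, a family that binds phosphorylated FoxO, fell by 1.45 and 1.23. Prkaa2, the muscle catalytic subunit of AMPK, rose by 1.26 in WT cells, from 0.731 to 1.85 FPKM, and was at 0.958 and 1.08 in PPARγ/+ cells. The riser in both was Foxo6.

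Of 26 other FoxO target genes, 6 rose in WT cells, namely Bcl6, Gadd45a, Klf15, Pink1, Sesn3 and Txnip, and 5 in PPARγ/+ cells, the same without Sesn3, and none was called as lower in limma. Among all genes tested, 8.94% and 9.11% were called as higher. Of the 26, 3 in each cell type had a negative change with an unadjusted p-value up to 0.05, short of 2-fold, where 28.3% and 32.7% of all genes tested had one. Without WT_5d replicate 3, 1 of them was called as lower in WT cells. Gadd45a, a stress gene of growth arrest, rose from 14.9 to 55.0 FPKM in WT cells (log2 1.93, limma adjusted p = 0.00213). Bcl6, a transcriptional repressor, rose by 1.52 and 1.38, and Txnip, an inhibitor of thioredoxin and glucose uptake, rose by 1.69 in PPARγ/+ cells, from 11.9 to 37.5 FPKM. The list's median was 0.24 and 0.18, where all genes tested had −0.08 and −0.10. Targets such as Irs2 and Insr belong to the insulin list as well, and 11 genes stand in 2 lists.

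Among 23 other ubiquitin ligases of muscle, 8 rose in WT cells (Asb2, Asb5, Fbxl22, Klhl40, Klhl41, Trim54, Trim55 and Trim72) and 7 in PPARγ/+ cells, the same without Fbxl22, and none was called as lower in limma. Of all genes tested, 8.94% and 9.11% were called as higher. A negative change with an unadjusted p-value up to 0.05, short of 2-fold, was found for 5 of the 23 in WT and 8 in PPARγ/+ cells. Of all genes tested, 28.3% and 32.7% had a negative change with such a p-value at any fold. Klhl41, a Kelch protein of the sarcomere, went from a mean of 0.904 to 60.9 FPKM in WT cells (log2 6.07) and from 0.232 to 24.7 in PPARγ/+ cells (6.25), and Trim72, a membrane repair protein, from 0.325 to 30.7 (6.05) and from 0.111 to 8.60 (5.39). The list's median was −0.05 and −0.03, and 0.08 and 0.10 after median-ratio scaling, where the median of all genes was 0.02. Trim55, the MuRF2 paralog of Trim63, was lower in PPARγ/+_0d than in WT_0d (0.399 against 3.20 FPKM, log2 −2.68, standard error 0.48, limma adjusted p = 0.0105). Fbxl22, an F-box protein of the sarcomere, was lower in PPARγ/+_5d than in WT_5d (0.165 against 0.696 FPKM, log2 −1.55, limma adjusted p = 0.0203). Neurl2, a Neuralized-like ligase subunit, had a negative interaction (−0.93, limma adjusted p = 0.0443), with means from 1.44 to 2.84 FPKM in WT cells and from 2.65 to 2.62 in PPARγ/+ cells. With 1 added to the FPKM none of these 3 was called (adjusted p = 0.0535, 0.0133 and 0.0516, the second under 2-fold). With Foxo6 they were the only pathway genes called in limma in those 3 tests, where the unadjusted p-value of 35, 38 and 23 of the 205 was 0.05 or less (21.3%, 15.3% and 12% of all genes tested).

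Without WT_5d replicate 3 the pathway genes called on 5d between the cell types were 1 higher and 10 lower in PPARγ/+ cells, in place of 0 and 1. That fit tested 205 pathway genes, and of all 18023 genes tested it called 288 as higher and 508 as lower. The lower pathway genes were Ckm, Des, Mybpc2, Myl1, Ttn, Trim54, Trim55, Trim72, Fbxl22 and Foxo6, named after their values were seen. Foxo6 had a log2 difference of −1.60 there (limma adjusted p = 6.42e-04) and Trim55 of −1.97 (limma adjusted p = 0.00774). With all libraries neither was called on 5d, and the difference of Foxo6 was −1.13 (limma adjusted p = 0.12). In the day comparison of WT cells the count without this library was 27 higher and 6 lower, where all genes gave 1642 and 1415.

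Few genes of the common machinery reached 2-fold. The shares of all genes tested were 8.94% called as higher and 7.53% as lower in WT cells, and 9.11% and 6.06% in PPARγ/+ cells. None of 23 genes of ubiquitin and the cullin-RING core was called in limma in either cell type, although the unadjusted p-value of 10 and 15 was 0.05 or less (46.8% and 54.4% of all genes tested), with a median change of −0.23 and −0.22. Of 36 proteasome subunits, 34 had a negative change in each cell type, with medians of −0.64 (WT) and −0.79 (PPARγ/+) where all genes had −0.08 and −0.10. After median-ratio scaling the medians were −0.51 and −0.66 where all genes had 0.02. Psma1 and Psma7, subunits of the core particle's outer ring, fell by 1.13 and 1.09 in WT cells, and by 1.21 and 1.20 in PPARγ/+ cells, where Psmb3 and Psmd3 fell as well. Of the 36, 31 subunits in WT cells and 33 in PPARγ/+ cells had a negative change with an unadjusted p-value up to 0.05, against 28.3% and 32.7% of all genes. The genes of dividing cells fell in the same libraries, and their part was not tested.

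Of 31 autophagy genes only Map1lc3a, which encodes an LC3 protein of the autophagosome, was called, from 27.2 to 108 FPKM in WT cells (log2 1.99, limma adjusted p = 1.63e-04) and from 30.2 to 79.1 in PPARγ/+ cells (1.41, limma adjusted p = 5.33e-04). With an unadjusted p-value up to 0.05 at any fold, 13 rose and 1 fell in WT cells, and 8 rose and 12 fell in PPARγ/+ cells. Of all genes tested, 46.8% and 54.4% had such a p-value. The list's median was 0.12 and −0.07, where all genes had −0.08 and −0.10. Of 16 other regulators of atrophy genes, Klf15 and Myog rose in both cell types. Myog, the myogenic factor of terminal differentiation, went from 6.62 to 192 FPKM in WT cells (log2 5.40) and from 1.65 to 85.0 in PPARγ/+ cells (5.90). Fkbp5, a glucocorticoid-responsive chaperone, fell in PPARγ/+ cells (log2 −1.15, from 3.86 to 1.68 FPKM). Of 13 reported substrates of the ligases, 8 rose and 1 fell in WT cells and 9 rose in PPARγ/+ cells. Among all genes tested, 8.94% rose and 7.53% fell in WT cells, and 9.11% rose and 6.06% fell in PPARγ/+ cells. The substrates that rose are largely sarcomere genes such as Mylpf, from 17.2 to 1305 FPKM in WT and 4.87 to 387 in PPARγ/+ cells, and Acta1, from 24.0 to 1457 and 9.78 to 684, both of which are also among the myotube markers. Vim, an intermediate filament of undifferentiated cells, fell in WT cells from 1299 to 530 FPKM (log2 −1.31, limma adjusted p = 0.00255).

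**Figure D4:**
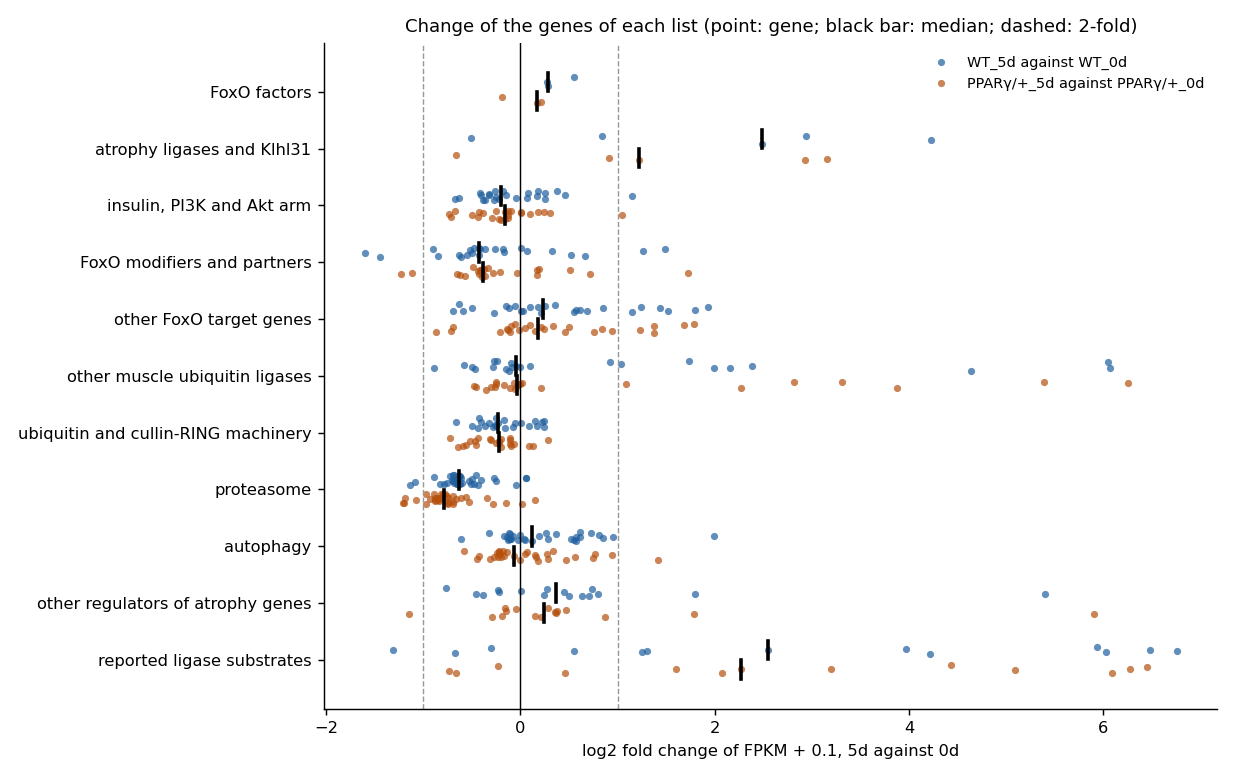
Log2 fold change of FPKM + 0.1 from 0d to 5d (x axis) for the genes of each list (y axis), with 1 point per gene, WT cells above PPARγ/+ cells and black bars for the medians. The proteasome subunits lie to the left of 0 in both cell types (medians −0.64 and −0.79), while the other muscle ligases split into a group near 0 and a tail beyond 2-fold.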

How the data were processed

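RNA of C2C12 cells was sequenced with an Illumina TruSeq RNA kit. Per the study's methods, the authors used STAR with GRCm38 for alignment and HTSeq with the Ensembl annotation for counting, and turned the counts into FPKM, whereas the labels' processing notes name mm9. The authors deposited the FPKM of each gene and library, and a copy as log2(FPKM + 1), which differed by at most 5.3e-14 and was not analysed further. Positions are those of GRCm38.

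The 18023 genes that reached 0.1 FPKM in 3 or more libraries were tested on log2(FPKM + 0.1) by limma 3.58.1 with a trend, in R 4.3.3, with Benjamini-Hochberg adjustment over all of them. The days were compared on the 6 libraries of a cell type, and the cell types and the interaction on all 12. Median log2 changes of all genes are given beside those of lists. The study describes 3 biological replicates per group. The labels do not say that replicates are separate cultures, so p-values measure the spread between libraries. Fragments were recovered as FPKM times exonic length times mapped read pairs. They were whole, within 0.02, for 21320 of 27138 genes above 0 (78.6%), 10836870 to 15133548 fragments per library, and for all 8 members, for Fbxo32 with an inferred length of 6936. A group with at most 3 fragments in every library was taken as at the floor. Intervals cover counting error only. limma was tested on simulated data. Other tools were Python 3.11.15, numpy 2.4.6, pandas 2.3.3, scipy 1.17.1 and matplotlib 3.10.9.

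The members, lists and tests were chosen with earlier results of these data known. Named are the 8 members, Pparg, Foxo6, the 2 nearest profiles of each member called between the days, and per list up to 2 called genes with the largest rise and 2 with the largest fall among those reaching a mean of 1 FPKM, with all called between cell types or in the interaction. Other called list genes were named after their values were seen. Prmt1, a FoxO modifier, was not analysed here. Alternatives were other pseudocounts, filters, scalings, p-value rules and weights, a replicate block, other sets of libraries and each library left out. The pathway counts without WT_5d replicate 3, after median-ratio scaling and with 1 added were chosen after seeing the data. Replicate numbers did not pair the libraries.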

Additional observations from a re-analysis of the deposited data

Results flagged for a closer look

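Foxo1 was picked out because its libraries moved in opposite directions in the 2 cell types, up in WT and down in PPARγ/+ cells with no overlap between the days. After median-ratio scaling Foxo1 changed by only −0.06 on the log2 scale in PPARγ/+ cells (limma adjusted p = 0.49). Its interaction coefficient was −0.47 on the log2 scale (95% interval −0.75 to −0.19, limma adjusted p = 0.147), so the difference was tested and did not pass after adjustment over all genes. Its value was between −0.53 and −0.39 over the alternatives. Groups of 3 libraries were too small for a search for single outlying libraries.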

How the results depend on the processing

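Of the single-gene values of the members, 725 kept their direction and their side of the threshold under the alternatives, 21 passed it, 3 lost it and 17 reversed. The cause of these shifts was not tested, except that the filter of 1 FPKM leaves 6 members to test and that 1 added draws low genes toward 0. Of 3 members called between the days, 1 remained with the filter of 1 FPKM, in WT as in PPARγ/+ cells, and 1 with 1 added in PPARγ/+ cells. With each library left out, 3 were called in WT cells and 3 to 4 in PPARγ/+ cells. On 0d, 1 member (Klhl31) was called with an unadjusted p, with 0.01 added and with array weights, and 0 to 1 with a library left out. On 5d, 2 were called with an unadjusted p and 3 with array weights, and 0 to 3 with a library left out. In the interaction 2 were called with an unadjusted p, 4 with array weights, and 0 to 1 with a library left out. Some of the array-weight fits stopped before convergence.

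The values that reversed were not called. On 0d Foxo4 was 0.0021 with array weights. With a library left out it lay between −0.087 and 0.031, Trim63 between −0.15 and 0.41 (negative without WT_0d replicate 3) and Fbxo40 between −0.0013 and 0.20. On 5d Fbxo30 was −0.0094 with median-ratio scaling and −0.022 to 0.10 with a library left out, and Fbxo32 was 0.021 with array weights. The interaction of Klhl31 was −0.38 with 1 added, −0.26 with array weights and −0.34 to 0.52 with a library left out, where that of Fbxo32 lay between −0.11 and 0.19 and that of Foxo4 between −0.11 and 0.0039.

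Same-numbered libraries did not deviate together (r from −0.07 to 0.08 over 12 pairs), and a replicate block changed no call of a member (3, 3, 0, 0 and 0 in the 5 comparisons), while the interaction called 61 genes in place of 137. Over all genes, the calls between the days were 1441 in place of 2970 in WT cells and 1241 in place of 2735 in PPARγ/+ cells with 1 added, and 1806 in the latter with the filter of 1 FPKM. Between the cell types on 0d they were 120 with 1 added, 699 with an unadjusted p and 555 with array weights in place of 353, and 180 and 226 without PPARγ/+_0d replicate 2 or 3. On 5d they were 28 on the own 6 libraries, 93 with the filter of 1 FPKM, 95 with 1 added, 720 with an unadjusted p and 1363 with array weights in place of 199, and 78 to 796 with a library left out. In the interaction 2164 had an unadjusted p of at most 0.05, 2070 were called with array weights, and 42 to 527 with a library left out. Median-ratio scaling moved the median of all genes from −0.08 to 0.02 in WT cells and from −0.10 to 0.02 in PPARγ/+ cells. Depth limits Klhl31 and Fbxo40 on 0d, at 1 to 36 and 1 to 6 fragments per library.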
